A study of Rattus norvegicus with 23 samples.

Results

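Grin1, Grin2a, Grin2b, Gria1 and Dlg4 encode 4 subunits of the ionotropic glutamate receptors and the postsynaptic scaffold protein PSD-95. They were taken by Ensembl identifier and make up 5 of the 32494 gene rows counted in each library: Grin1 is ENSRNOG00000011726, Grin2a is ENSRNOG00000033942, Grin2b is ENSRNOG00000008766, Gria1 is ENSRNOG00000045816 and Dlg4 is ENSRNOG00000018526. The identifiers came with the choice of genes, and no table used here pairs them with symbols. Messenger RNA was sequenced from three-dimensional aggregates of brain cells of Sprague Dawley rats at embryonic day 15, kept in culture for 14 days under agitation. The treated groups received sepiapterin, a precursor of the enzyme cofactor tetrahydrobiopterin, at 120 ng/ml, and every control group received PBS. Control aggregates were sampled at 0, 6, 12 and 24 h (T0, T6, T12 and T24) and treated aggregates at 6, 12 and 24 h, with 3 libraries in each of these 7 groups. A further 2 libraries repeat T12 controls. The aggregates are a mixed culture, and the labels name no cell type, sex or genotype.

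NMDA receptors are assemblies of the obligatory GluN1 subunit, encoded by Grin1, with GluN2 subunits. In the developing forebrain GluN2B, encoded by Grin2b, predominates early and GluN2A, encoded by Grin2a, is added later, and the pair give receptors of different kinetics. Gria1 encodes GluA1, a subunit of the AMPA receptors that carry fast excitatory transmission and are inserted into synapses during plasticity. PSD-95, encoded by Dlg4, binds GluN2 tails and, through auxiliary proteins, holds AMPA receptors at the postsynaptic density.

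Each library held 16991417 to 26588314 reads in genes. Over these libraries Dlg4 had 5741 to 9175 reads, Gria1 had 1185 to 2514, Grin2b had 654 to 2036 and Grin2a had 69 to 197. Levels below are CPM, a gene's share of its library's reads in genes, scaled by edgeR's TMM factors. They are compared within a gene and not between genes, because they are not divided by transcript length. T6 and T12 libraries were made in the first library batch, T24 libraries and the 2 repeats in the second, per the labels, which do not place the T0 libraries, so whether T0 and T6 share a batch is unknown here. Titles and file headers disagree for samples 10 and 11: the libraries titled 10 and 11 carry the headers 10b and 11b, and the libraries titled as repeats carry 10 and 11. Libraries were grouped by title, and values by header are given where they change a result. For the 5 genes, the 2 libraries of a sample differed by at most 0.27 on the log2 scale (Grin2a, sample 11). For Dlg4 they differed by 0.09 in sample 10 and 0.07 in sample 11. T0 replicate 1 stood apart from its group: its root mean square log2 difference over the genes tested was 0.364 and 0.393 from the other T0 libraries, against at most 0.301 for every other pair of libraries of a group. The labels do not say that replicates were separate cultures. The p-values therefore set differences between groups against the spread of these samples only, and part of that spread may be technical.

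**Figure D1:**
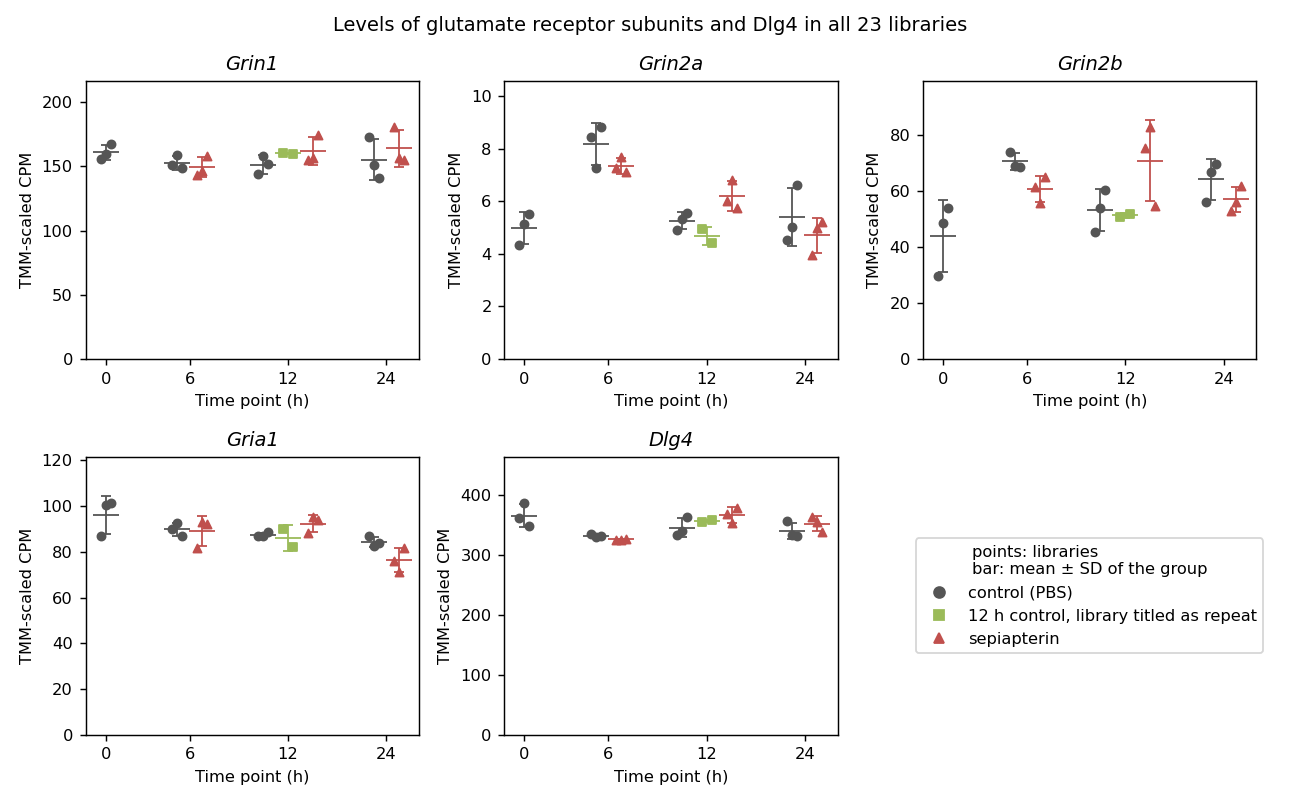
TMM-scaled CPM (vertical axis) of Grin1, Grin2a, Grin2b, Gria1 and Dlg4 in each of the 23 libraries, by time and treatment; each point is a library and bars are the group mean ± SD. Grin2a has its 6 highest libraries at T6, a pattern whose share over all genes was not computed, and Grin2b has its lowest library at T0.

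The plot of levels by library shows that the modulatory NMDA receptor subunits were the least steady of the 5 genes. The highest group mean of Grin2a was 1.73 times the lowest, and that of Grin2b 1.61 times. The same ratio was 1.26 for Gria1, 1.12 for Dlg4 and 1.10 for Grin1. Spread between replicates was also widest for these genes, with a median coefficient of variation within groups of 11.3% for Grin2b, 9.80% for Grin2a, 5.22% for Grin1, 4.04% for Gria1 and 3.52% for Dlg4. Counting error alone is expected to give 7.12 to 12.0% for Grin2a and 1.04 to 1.32% for Dlg4. The median spread of Grin2a is thus about the size of its counting error, and that of Dlg4 is above it. Single groups fell below these values: Dlg4 had 0.724% in T6 controls and 0.379% in T6 sepiapterin, and Grin2a 3.96% in T6 sepiapterin. In bulk RNA, fewer cells of a type and less RNA per cell cannot be told apart.

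From T0 to T6 in control aggregates, Grin2a and Grin2b rose, Dlg4 fell slightly, and Grin1 and Gria1 did not pass the test. That is 3 of the 5 genes past an adjusted p of 0.05, while 21.6% of all 14035 genes tested were called in the same comparison. The median log2 fold change of the 5 genes was -0.07. All tests across genes are edgeR's quasi-likelihood test with Benjamini-Hochberg adjustment over the genes tested.

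Grin2a, whose product GluN2A shortens the NMDA receptor current, stood at 4.34, 5.12 and 5.52 CPM in the T0 libraries and at 8.43, 7.27 and 8.81 CPM in the T6 controls. The groups did not overlap, as was so for 36% of all genes. The rise was 0.71 ± 0.13 on the log2 scale (SE; 95% interval 0.44 to 0.98; adjusted p = 0.00037). In T6 sepiapterin libraries Grin2a was 7.27, 7.66 and 7.10 CPM. All 6 T6 libraries, treated or not, lay above all 17 others, of which the highest had 6.82 CPM. The share of all genes with such a gap at T6 was not computed, so how common it is remains unknown here.

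By T12 Grin2a had fallen back in the controls, to 4.92, 5.32 and 5.54 CPM, all below every T6 control (29.3% of all genes were without overlap here). The change was -0.64 ± 0.13 on the log2 scale (95% interval -0.90 to -0.37; adjusted p = 0.0088). It was the only one of the 5 genes called between T6 and T12 in controls, where 4.67% of all genes were called. With the T12 controls taken by file header the change was -0.72 (adjusted p = 0.0096). It missed the threshold without T12 control replicate 1 (-0.58, adjusted p = 0.076) and without T6 control replicate 3 (-0.57, adjusted p = 0.055), and over the 11 alternatives the adjusted p ran from 0.0013 to 0.076.

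In sepiapterin aggregates Grin2a went from the T6 values above to 6.01, 6.82 and 5.73 CPM at T12. These T12 libraries lay below all T6 sepiapterin libraries, while 30.6% of all genes were without overlap here. The change of -0.25 ± 0.13 on the log2 scale (95% interval -0.51 to 0.01) missed the threshold with an adjusted p of 0.25. The sepiapterin effect on Grin2a, treated minus control, differed by 0.38 ± 0.18 between T12 and T6 (adjusted p = 0.67). At T24 Grin2a was 4.54, 5.01 and 6.63 CPM in controls and 3.96, 4.98 and 5.19 CPM with sepiapterin, and the repeated T12 controls had 4.93 and 4.42 CPM. Ordered by mean, the groups ran from T6 control (8.17 ± 0.80, SD, n = 3) and T6 sepiapterin (7.34 ± 0.29) to T12 sepiapterin (6.19 ± 0.57), T24 control (5.39 ± 1.09), T12 control (5.26 ± 0.32), T0 (4.99 ± 0.60), T24 sepiapterin (4.71 ± 0.66) and the repeats (4.68 ± 0.36, n = 2). The single gap between neighbours in this order was below T6 sepiapterin, and the other neighbouring groups overlapped.

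Grin2b, whose product GluN2B gives the slower receptor of early forebrain, was 29.5, 48.4 and 53.8 CPM at T0. In T6 controls it was 74.0, 68.9 and 68.7 CPM. Every T6 control was above every T0 library (36% of all genes were without overlap here), and T0 replicate 1 was the lowest of all 23 libraries. The rise was 0.69 ± 0.19 on the log2 scale (95% interval 0.29 to 1.09; adjusted p = 0.017). Without T0 replicate 1 it was 0.48 ± 0.16 (adjusted p = 0.042), and without T6 control replicate 1 it missed the threshold at 0.66 (adjusted p = 0.052). Over the 9 alternatives the adjusted p ran from 0.0034 to 0.052.

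At T12 Grin2b was 45.4, 53.9 and 60.4 CPM in controls, all below the T6 controls (29.3% of all genes were without overlap here). The change from T6 was -0.41 ± 0.19 on the log2 scale (95% interval -0.81 to -0.01) and its adjusted p was 0.22. With sepiapterin, Grin2b was 61.5, 55.6 and 65.0 CPM at T6 and 75.2, 82.7 and 54.6 CPM at T12. The T12 sepiapterin libraries were the most spread of the treated groups: replicate 3 lay below all T6 sepiapterin libraries and the other two above them. The log2 change between these groups was 0.22 ± 0.18, with an adjusted p of 0.53.

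In the second library batch, by title, T24 controls were compared with the 2 repeated T12 controls. Grin2b was 55.9, 66.9 and 69.7 CPM at T24 against 50.7 and 51.9 CPM at T12, without overlap, as were 43.8% of all genes with these 3 and 2 libraries. It was higher by 0.32 ± 0.09 on the log2 scale (95% interval 0.14 to 0.50; adjusted p = 0.041) and was 1 of the 5 genes called, in a comparison that called 5.54% of 13653 genes. The call was lost with library size only (0.29, adjusted p = 0.056), against the T12 controls titled 10, 11 and 12 (0.27, adjusted p = 0.59), with the T12 libraries taken by header (0.37, adjusted p = 0.13), without T24 control replicate 2 (0.29, adjusted p = 0.13) or 3 (0.26, adjusted p = 0.15), and without either repeat (0.30 and 0.34, adjusted p = 0.33 and 0.19), where the lone T12 library is assumed to vary like the others. Over the 10 alternatives the adjusted p ran from 0.0019 to 0.59. In the T24 controls, the share of alignments outside any gene was 15.4, 16.4 and 17.1% in the same order as the Grin2b values above, and its part in the result was not tested. Grin2a changed by 0.20 ± 0.17 in this comparison (adjusted p = 0.53).

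Ordered by mean, Grin2b ran from T12 sepiapterin (70.8 ± 14.5 CPM, SD, n = 3) and T6 control (70.5 ± 3.02) through T24 control (64.2 ± 7.27), T6 sepiapterin (60.7 ± 4.75), T24 sepiapterin (56.9 ± 4.52), T12 control (53.3 ± 7.54) and the repeats (51.3 ± 0.82, n = 2) to T0 (43.9 ± 12.8). Every neighbouring pair of groups in this order overlapped.

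Grin1, the subunit that every NMDA receptor contains, passed the test in no comparison between times. It was 155.9, 159.9 and 167.1 CPM at T0, 151.2, 158.9 and 148.6 CPM in T6 controls, 143.7, 158.3 and 151.7 CPM in T12 controls, and 172.5, 151.4 and 141.3 CPM in T24 controls. These groups overlapped throughout, and T24 control replicate 3 was the lowest of all 23 libraries. The log2 change from T0 to T6 was -0.07 ± 0.07 (adjusted p = 0.52), and that from T6 to T12 in controls -0.02 (adjusted p = 0.89). From T12 to T24, within the second batch by title, it was -0.05 (adjusted p = 0.76). Grin1 in sepiapterin libraries was 143.3, 146.7 and 158.2 CPM at T6, 155.2, 156.5 and 174.5 CPM at T12, and 180.3, 156.8 and 154.7 CPM at T24. Group means of Grin1 ran from 149 ± 7.79 CPM (T6 sepiapterin, SD, n = 3) to 164 ± 14.2 CPM (T24 sepiapterin), and all neighbouring groups overlapped.

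Gria1, the AMPA receptor subunit, was 86.7, 100.3 and 101.3 CPM at T0 and 89.9, 92.8 and 87.0 CPM in T6 controls. T0 replicate 1 lay below all T6 controls and the other T0 libraries above them. The log2 change was -0.09 ± 0.06 (adjusted p = 0.31), and without T0 replicate 1 it was -0.15 (adjusted p = 0.06, the lowest of a range up to 0.6 over the alternatives). T12 controls of Gria1 had 87.1, 87.0 and 88.5 CPM, a log2 change of -0.04 from T6 (adjusted p = 0.72). T24 controls had 86.8, 82.6 and 84.0 CPM against 90.0 and 82.0 CPM in the repeated T12 controls (-0.03, adjusted p = 0.83).

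Dlg4, the PSD-95 gene, was 361, 386 and 348 CPM at T0 and 334, 329 and 331 CPM in T6 controls. The groups were without overlap, as were 36% of all genes. Its fall of -0.13 ± 0.05 on the log2 scale (95% interval -0.23 to -0.04; adjusted p = 0.039) was small and close to the threshold. The call was kept in 2 of the 9 alternatives, over which the adjusted p ran from 0.017 to 0.18. It was lost without any of the T6 control libraries (adjusted p = 0.089, 0.11 and 0.075 without replicates 1, 2 and 3) and without T0 replicate 1 (0.055) or 2 (0.18). It was also lost with scaling by library size only (-0.10, adjusted p = 0.11) and without the filter (adjusted p = 0.075). Dlg4 stayed low at T6 under treatment too, at 325.0, 325.2 and 327 CPM.

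From T6 to T12 Dlg4 rose in sepiapterin aggregates, to 368, 353 and 378 CPM, all above the T6 values (30.6% of all genes were without overlap here). The log2 change was 0.16 ± 0.05 (95% interval 0.07 to 0.26; adjusted p = 0.04), and Dlg4 was the 1 gene of the 5 called, where 4.37% of all genes were called. This call too was kept in 2 of 9 alternatives, with adjusted p from 0.012 to 0.22: it was lost without any T6 sepiapterin library (adjusted p = 0.14, 0.12 and 0.074 without replicates 1, 2 and 3) and without T12 sepiapterin replicate 1 (0.095) or 3 (0.22). It was also lost with library size only (adjusted p = 0.067) and without the filter (0.052). In controls Dlg4 was 333, 341 and 363 CPM at T12, which overlapped T6, with a log2 change of 0.05 ± 0.05 (adjusted p = 0.53). With the T12 controls taken by header this change was 0.11 (adjusted p = 0.19). The sepiapterin effect on Dlg4 differed by 0.11 ± 0.06 between T12 and T6 (adjusted p = 0.7), so the rise was not shown to be particular to sepiapterin. T24 controls had 356, 334 and 331 CPM against 356 and 358 CPM in the repeats (-0.07, adjusted p = 0.43).

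**Figure D2:**
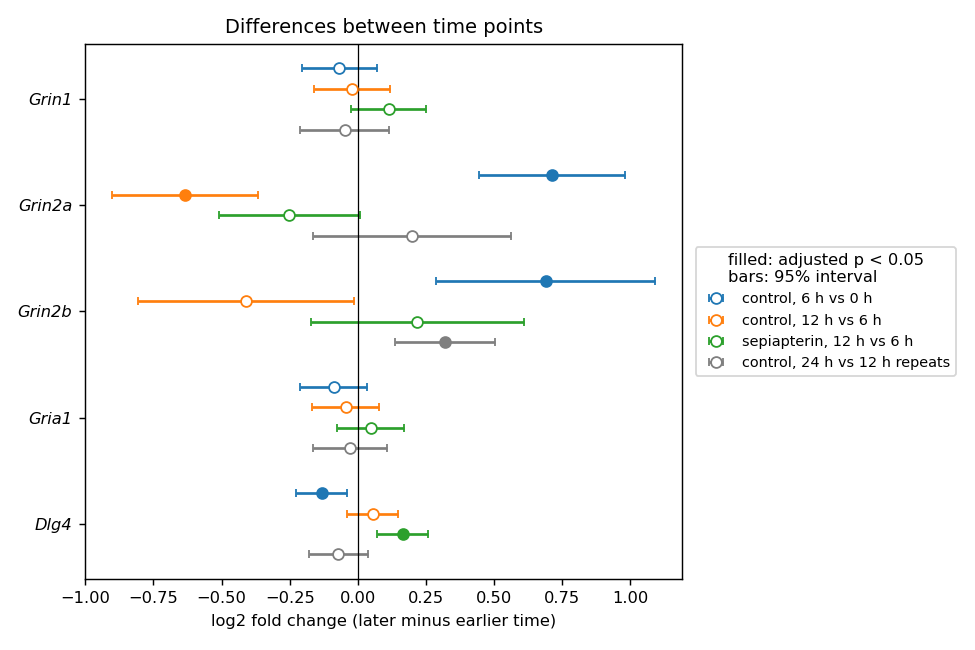
Log2 fold changes (horizontal axis) of the 5 genes between time points in control or sepiapterin aggregates, as points with 95% intervals from edgeR's quasi-likelihood fit. Grin2a rises by 0.71 from T0 to T6 and changes by -0.64 from T6 to T12 in controls, while the intervals of Grin1 and Gria1 include 0 in all 4 comparisons.

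The treatment comparison asks whether sepiapterin changed expression against PBS at the same time. None of the 5 genes passed the test at T6, T12 or T24, or for the mean over the 3 times. Of all 14035 genes, 0% were called at T6, 0.0214% at T12, 4.17% at T24 and 1.03% for the mean. DESeq2 called 0 of the 5 genes in each, at an adjusted p under 0.05. At an unadjusted p under 0.05, edgeR gave 0 of the 5 genes at T6, 1 at T12 (Grin2b), 1 at T24 (Gria1) and 0 for the mean. Over all genes the shares at that unadjusted threshold were 2.14%, 15.9%, 20.4% and 17.6%, so 1 of 5 is near the background. No alternative setting called any of the 5 genes in these comparisons, and the lowest adjusted p among them was 0.061.

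At T6 the log2 differences, sepiapterin minus control, were -0.22 for Grin2b (95% interval -0.61 to 0.18), -0.15 for Grin2a (-0.40 to 0.10), -0.03 for Grin1 (-0.17 to 0.11), -0.02 for Dlg4 (-0.12 to 0.07) and -0.01 for Gria1 (-0.14 to 0.11), each with an adjusted p of 1. For Grin2b all treated libraries were below all controls (55.6 to 65.0 against 68.7 to 74.0 CPM), and for Dlg4 the treated libraries were lower by a narrow margin (325.0 to 327 against 329 to 334 CPM). The other genes overlapped. Over all genes, 10.7% were without overlap at T6.

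At T12 the sign was the other way for each gene. The difference was 0.41 for Grin2b (95% interval 0.02 to 0.81; adjusted p = 0.29), 0.24 for Grin2a (-0.04 to 0.51; 0.39), 0.10 for Grin1 (-0.04 to 0.24; 0.47), 0.09 for Dlg4 (-0.01 to 0.18; 0.35) and 0.08 for Gria1 (-0.04 to 0.20; 0.54). Only Grin2a was without overlap, at 5.73 to 6.82 CPM treated and 4.92 to 5.54 CPM in controls, and 22.3% of all genes were without overlap at T12. With the controls taken by header, the differences were 0.38 for Grin2b, 0.32 for Grin2a, 0.09 for Gria1, 0.04 for Grin1 and 0.03 for Dlg4.

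At T24 Gria1 was 76.2, 71.1 and 81.7 CPM with sepiapterin against 86.8, 82.6 and 84.0 CPM in controls, so that every treated library was below every control, while 23.5% of all genes were without overlap at T24. The difference was -0.15 ± 0.06 on the log2 scale (95% interval -0.27 to -0.02), and it missed the threshold with an adjusted p of 0.18. Over the alternatives its adjusted p ran from 0.061, without T24 sepiapterin replicate 3, to 0.51. The differences of the others were -0.19 for Grin2a (-0.49 to 0.12; adjusted p = 0.51), -0.17 for Grin2b (-0.58 to 0.24; 0.67), 0.08 for Grin1 (-0.06 to 0.22; 0.55) and 0.05 for Dlg4 (-0.04 to 0.14; 0.58), all with overlapping groups. Single libraries moved these values: over the alternatives Grin2a ranged from -0.30 to -0.017, the latter without T24 control replicate 3, and Grin1 from 0.0060, without T24 sepiapterin replicate 1, to 0.16. Grin2b was 52.9, 56.2 and 61.8 CPM and Dlg4 363, 355 and 339 CPM with sepiapterin at T24.

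**Figure D3:**
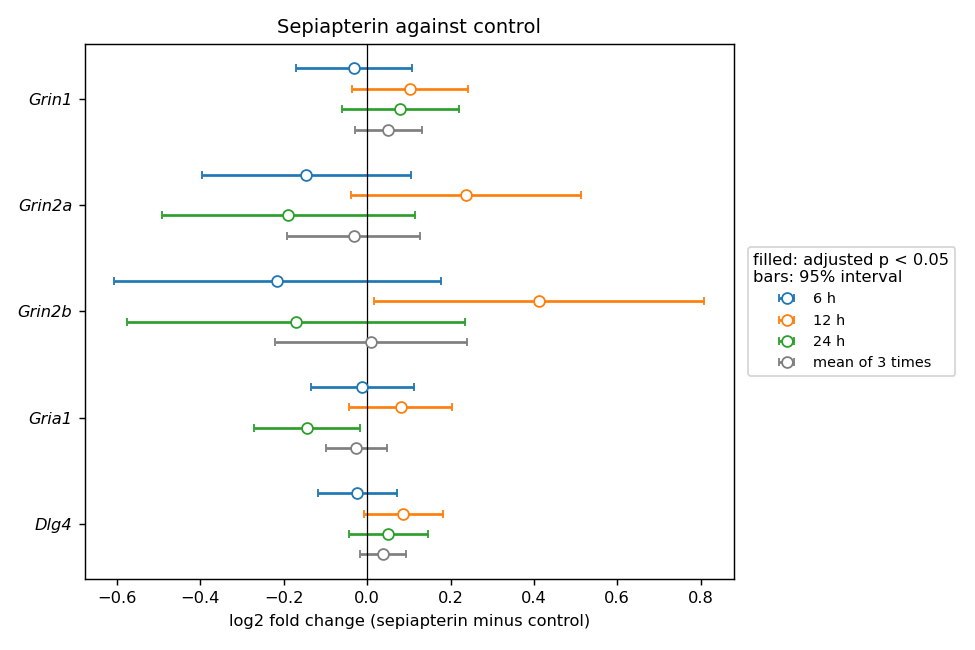
Log2 difference, sepiapterin minus control (horizontal axis), of the 5 genes at T6, T12 and T24 and for the mean over these times, as points with 95% intervals. The interval of Grin2b is the widest at each time, and those of Grin2b at T12 (0.02 to 0.81) and Gria1 at T24 (-0.27 to -0.02) leave out 0 before adjustment.

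Averaged over the 3 times, the log2 differences were 0.05 for Grin1 (95% interval -0.03 to 0.13), 0.04 for Dlg4 (-0.02 to 0.09), 0.01 for Grin2b (-0.22 to 0.24), -0.03 for Gria1 (-0.10 to 0.05) and -0.03 for Grin2a (-0.19 to 0.13). The intervals bound a mean effect most tightly for Dlg4 and least for Grin2b. None of the 5 genes was called for a difference in the sepiapterin effect between times, where 0% of all genes were called between T12 and T6, 0.235% between T24 and T12 and 0% between T24 and T6. DESeq2 also called 0 of the 5 in each, at an adjusted p under 0.05. At an unadjusted p under 0.05, edgeR gave 2, 3 and 0, a threshold that 7.47%, 12.8% and 11.8% of all genes passed. The effect on Grin2b differed by 0.63 ± 0.26 between T12 and T6 and by -0.58 ± 0.27 between T24 and T12 (adjusted p = 0.37 for the latter). The lowest adjusted p of the 5 genes was 0.26, for Gria1 between T24 and T12 (-0.23 ± 0.09). By title, each effect is treated against control within 1 batch, but a difference that involves T24 sets effects from different batches against each other. By header, the T12 controls used here include the repeats of samples 10 and 11, and so libraries of both batches.

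Ratios of read counts within a library show which genes moved apart, since the scaling cancels. They are given as descriptions, with no test. The ratio of Grin2b to Grin1 counts was 0.272 ± 0.072 at T0 (SD, n = 3), 0.462 ± 0.028 in T6 controls and 0.352 ± 0.042 in T12 controls, and 0.406 ± 0.025 and 0.442 ± 0.114 with sepiapterin at T6 and T12. The mean ratio of Grin2a to Grin2b was 0.118 ± 0.025 at T0, 0.116 ± 0.011 in T6 controls and 0.122 ± 0.015 with sepiapterin. The T0 mean is raised by replicate 1, at 0.147, while the other T0 libraries had 0.106 and 0.103. At T12, by title in the same library batch as T6, the ratio was 0.0995 ± 0.0083 in controls (0.0917 to 0.108). With sepiapterin it was 0.0891 ± 0.0138 (0.0799 to 0.105). At T24 it was 0.0837 ± 0.0103 in controls and 0.0825 ± 0.0070 with sepiapterin. The T24 libraries (0.0748 to 0.095) did not overlap the T6 libraries (0.106 to 0.138), which come from the other library batch, but overlapped the T12 libraries. How many gene pairs show such a gap was not computed. By title, the first libraries of samples 10 and 11 had 0.108 and 0.0986, and their second-batch repeats 0.0972 and 0.0853. By header these libraries change places. The part of the library batch in the ratio was not tested.

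**Figure D4:**
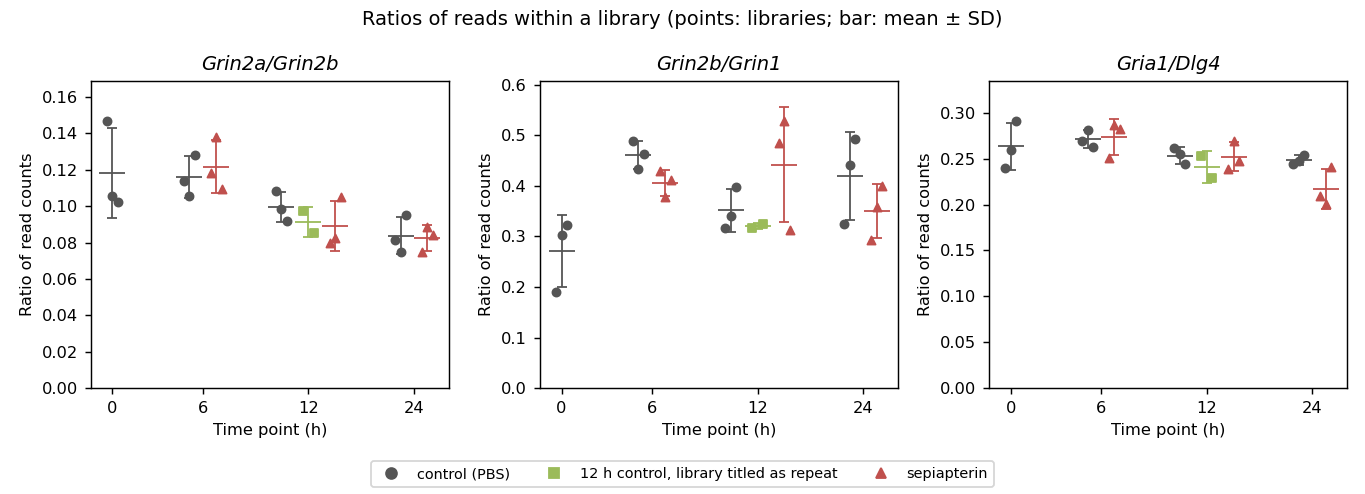
Ratios of read counts (vertical axis) of Grin2a to Grin2b, Grin2b to Grin1 and Gria1 to Dlg4 in each library, by time and treatment, with bars for the group mean ± SD. The Gria1 to Dlg4 ratio at T24 is lower in the 3 sepiapterin libraries (0.200 to 0.241) than in the 3 controls (0.244 to 0.254). The Gria1 to Grin1 ratio, not drawn, overlaps at T24.

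The ratio of Gria1 to Dlg4 counts at T24 was 0.217 ± 0.021 with sepiapterin and 0.248 ± 0.005 in controls (SD, n = 3), a narrow gap. That of Gria1 to Grin1 overlapped at T24, at 0.422 to 0.528 with sepiapterin and 0.503 to 0.595 in controls. The share of gene pairs without overlap was not computed. The Grin1 to Dlg4 ratio ranged only from 0.438 to 0.465 over the group means.

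Over the 21 libraries of the 7 groups, the 5 genes form 10 pairs. The highest correlations of log2 CPM were between Grin2a and Grin2b (Pearson 0.62, Spearman 0.65) and between Grin1 and Dlg4 (0.61 and 0.61). Within groups, after removing group means, these were 0.65 and 0.49. Grin2a ran against Dlg4 (-0.56, and -0.39 within groups) and Grin1 (-0.51, and -0.61 within groups). The other 6 pairs lay between -0.32 and 0.33 over the 21 libraries. Of these, Grin2b with Gria1 went from 0.04 to 0.42 within groups. Libraries share groups, batches and depth, so these values are descriptions.

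**Figure D5:**
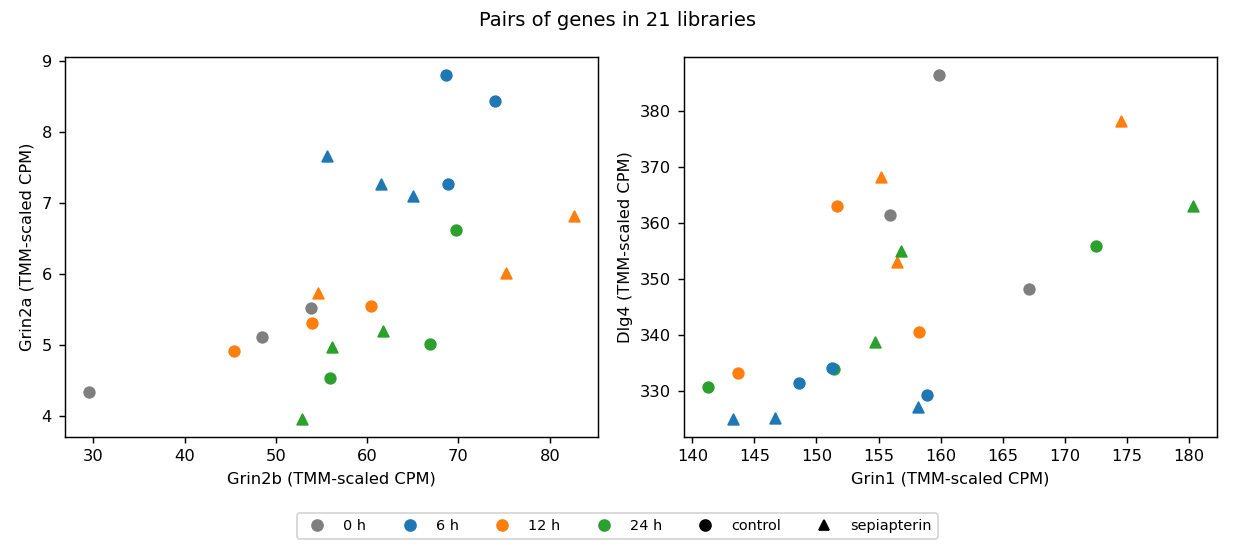
TMM-scaled CPM of Grin2a (vertical) against Grin2b (horizontal) and of Dlg4 (vertical) against Grin1 (horizontal), 1 point per library over 21 libraries, coloured by time and shaped by treatment. Both pairs rise together (Pearson 0.62 and 0.61 on log2 CPM), with the T6 libraries at the high end of Grin2a and the low end of Dlg4.

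The share of a library's alignments that fell outside genes varied within groups, and it had within-group correlations of 0.62 with Grin2a, 0.42 with Grin2b, 0.44 with Gria1, -0.28 with Grin1 and -0.50 with Dlg4. For Grin2a, 96.7% of the genes tested had a lower such correlation, and for Dlg4 7.76%. The part of this share in the results above was not tested.

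Promoter sequences were matched in RefSeq's promoter table (build GRCr8) for 2 of the 5 genes, Grin1 and Dlg4, and are shown to set the pair side by side. They were not tested against the levels. The 250 bases before each annotated start are printed 5′ to 3′ on the gene's strand, with every CpG in capitals. Grin1 lies on the minus strand (chr3:28528755-28529004) and Dlg4 on the plus strand (chr10:55239534-55239783).
Grin1: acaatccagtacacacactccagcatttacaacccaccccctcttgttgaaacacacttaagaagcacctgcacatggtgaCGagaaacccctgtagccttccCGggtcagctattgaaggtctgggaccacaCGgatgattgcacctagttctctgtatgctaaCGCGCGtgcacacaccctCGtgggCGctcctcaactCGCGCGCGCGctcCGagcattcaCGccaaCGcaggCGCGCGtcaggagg
Dlg4: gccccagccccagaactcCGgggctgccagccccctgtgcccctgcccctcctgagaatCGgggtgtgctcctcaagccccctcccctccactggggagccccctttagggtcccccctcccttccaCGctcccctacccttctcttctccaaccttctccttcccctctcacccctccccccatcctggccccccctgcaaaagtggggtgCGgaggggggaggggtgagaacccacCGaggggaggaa
The Grin1 stretch holds 19 CpG, clustered toward the start site, with a GC content of 57.6%, and the Dlg4 stretch holds 5 with a GC content of 69.2%. The median promoter holds 5 CpG in these 250 bases, as Dlg4 does, and 81.6% of promoters hold fewer than Grin1. With 50 bases after the start added, GC content is 59.7% for Grin1 and 68.7% for Dlg4, against a median of 51.7%. Over the 300 bases from 250 before to 50 after the start, both strands were searched for fixed motifs. GGGCGG occurs 1 time at Grin1 and 0 times at Dlg4 (33.1% of 33469 promoters hold it), and GCGGGGGCG, which overlaps it there, 1 and 0 times (2.73%). GGGAGGG occurs 1 time at Grin1 and 4 times at Dlg4 (20.8%). TGACGTCA (1.83%) and TATAAA (14.2%) occur at neither. A match is a description of the sequence only.

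The gene whose level over the 21 libraries was most like that of Grin2b, among 14035, was ENSRNOG00000008425 (Pearson 0.95), and the gene most like Gria1 was ENSRNOG00000016280 (0.88). ENSRNOG00000008425 was chosen for its likeness to Grin2b over these same libraries, so its values are no separate support for the Grin2b pattern. At T0 it had 180 CPM in replicate 1 and 263 and 279 CPM in the others, with 351, 317 and 315 CPM in T6 controls.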

How the data were processed

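The files the authors deposited hold unnormalized counts of reads per gene, for 23 libraries. The submitters' processing notes name cutadapt 1.8, STAR 2.5.2b, HTSeq 0.6.1 and the build Rnor_6.0. No source used here states the strand setting or annotation release, so reads of overlapping genes may be shared. Reads outside genes (14.8 to 17.1% of alignments) and reads aligned to several places (23.5 to 25.0%) stayed out of library sizes and tests.

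Genes were kept with edgeR 4.0.16's filterByExpr at a minimum count of 10, scaled by TMM and tested with the robust quasi-likelihood fit on 21 libraries in 7 groups (14 residual degrees of freedom). The comparison of T24 with repeated T12 controls was fitted on 8 libraries that are second-batch by title. Among them the T24 sepiapterin libraries inform only the spread. P-values were adjusted by Benjamini-Hochberg over all genes tested, called under 0.05, and intervals are 95%. Fits used R 4.3.3 and were tested on simulated data. Alternatives were DESeq2 1.42.0, scaling by library size only, no filter, T12 controls by header, summed libraries of samples 10 and 11, T24 against T12 controls titled 10, 11 and 12, and leaving out each library.

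The rule for named genes was the 5 members, with the gene most like each, by identifier for at most 2, and lists of other glutamate receptor and postsynaptic genes. Those lists and the cell type markers were not analysed here, because no identifier matched a symbol. The members and lists were chosen with earlier results of these data known.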

Additional observations from a re-analysis of the deposited data

How the results depend on the processing

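Over 8 comparisons of groups, 420 single-gene fold changes under the alternatives kept their direction and side of the threshold, 24 kept direction but missed it, 21 changed sign and 0 newly passed it. Among 255 values of the 3 differences in effect between times, 14 changed sign, the largest of them to 0.13. By header these were Grin1 (0.028) and Dlg4 (0.012) for T24 against T12. The cause was not tested. The number of the 5 genes called from T0 to T6 ranged from 1 to 3 as single libraries were left out, and for T6 to T12 in controls from 0 to 1. From T6 to T12 with sepiapterin it was 0 with library size only and 0 without the filter, and 0 to 1 with libraries left out. From T12 to T24 it was 0 with library size only, 0 by header, 0 against the T12 controls titled 10, 11 and 12, and 0 to 1 with libraries left out. In the 8 comparisons the sign changes were, by header, Grin2b in the mean effect (-0.0040), Grin1 from T6 to T12 in controls (0.033; 0.0072 with summed libraries) and, from T12 to T24, Grin1 (0.043; 0.037 against titles 10 to 12) and Dlg4 (0.017). With libraries left out, the treatment effect on Gria1 at T6 ranged from -0.047 to 0.046, Grin2a in the mean from -0.072 to 0.023, Grin2b in the mean from -0.034 to 0.061, Grin1 from T6 to T12 in controls from -0.050 to 0.019, Gria1 from T6 to T12 with sepiapterin from -0.011 to 0.082 and, from T12 to T24, Grin1 from -0.13 to 0.014 and Gria1 from -0.092 to 0.039. Scaling by library size only moved the mean CPM of Grin1 in the T12 repeats to 161, and of Dlg4 at T6 to 336 in controls and 334 with sepiapterin. Depth limits Grin2a most: at 69 reads counting error is 12.0%.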
